A study of Mus musculus with 8 samples.

Results

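Ribosome footprints of epididymal white adipose tissue (eWAT) of HuR-FKO mice were set against those of Ctrl mice, to describe which proteins the fat tissue was making and how that output differed between the genotypes. HuR-FKO denotes male AdipoQ-Cre;HuRf/f mice, in which Cre driven by the adiponectin promoter deletes both floxed alleles of HuR (gene Elavl1) in adipocytes. Ctrl denotes their male HuRf/f littermates without Cre, so both genotypes carried the floxed alleles. The mice were 6 weeks old, no treatment is given for them, and the fat of 3 mice was combined into each pool. There were 2 HuR-FKO pools and 2 Ctrl pools, each with 1 library of ribosome-protected fragments (RPF), and these 4 libraries, chosen by their assay label, are described here out of 8 in the series. The other 4 are mRNA libraries made from another share of the same pools. The table lists 8562 genes, all above 1 RPKM (reads scaled to the length of the coding sequence and to the coding reads of the library) in each library, so the translated output means the output of these genes.

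In ribosome profiling, lysed tissue is treated with nuclease, and the short stretch of mRNA that sits inside each translating ribosome survives and is sequenced. The footprints on a coding sequence therefore count the ribosomes that were making that protein, and scaled by its length they give their density. White adipocytes take up and make fatty acids, store them as triglyceride in a lipid droplet, release them in fasting, and secrete adipokines. HuR binds AU-rich stretches of many mRNAs and can stabilise them or alter their translation.

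The RPF libraries held between 531966 and 1311977 coding reads, of which 97.6% to 97.9% fell on the listed genes. HuR-FKO pool 2 was the shallowest, with a median of 16 reads per gene, against 40 in HuR-FKO pool 1, 36 in Ctrl pool 1 and 23 in Ctrl pool 2. Between replicate pools the correlation across genes of log2(RPKM + 1) was 0.970 in HuR-FKO and 0.974 in Ctrl, and across genotypes it was 0.956 to 0.972. These correlations run over genes, which are not independent replicates. The median gene differed by 0.26 on the log2 scale between the HuR-FKO pools and by 0.25 between the Ctrl pools, while the genotype means of the median gene differed by 0.23. The 0.23 is a difference between means of 2 pools, and such means vary less than single pools. It can therefore not be ranked against 0.26 and 0.25. The labels name pools and not separate cultures or runs, and there were 2 pools a group. The p-values rest on the spread between those pools, moderated toward the spread of genes of similar level. The median degrees of freedom, prior and residual together, were 8.34.

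The cells of the tissue were checked first. All 20 adipocyte markers of the list were in the table, and together they reached 177095 and 180051 RPKM in the HuR-FKO pools, against 140471 and 146989 RPKM in the Ctrl pools. Fabp4, Car3 and Cfd made up 79.0% and 81.6% of that sum in HuR-FKO, against 77.6% and 75.1% in Ctrl. The other 17 markers overlapped, at 37148 and 33068 RPKM in HuR-FKO, against 31531 and 36615 RPKM in Ctrl. Of the 20 markers 9 had both HuR-FKO pools above both Ctrl pools, against 17.7% of all genes, and 4 had both below, against 24.1%. Of the macrophage markers 31 were described, and they summed to 5309 and 5236 RPKM in HuR-FKO, against 5052 and 4175 RPKM in Ctrl. None of the 22 markers of epididymis and testis was in the table, and neither were 16 of 17 lymphocyte markers or 11 of 14 skeletal muscle markers. Ptprc, the leukocyte surface phosphatase CD45, was the lymphocyte-list gene that was listed, at 23.4 and 23.3 RPKM in HuR-FKO, against 30.2 and 26.5 RPKM in Ctrl. The part of cell makeup in the results was not tested. In such bulk tissue, more or fewer cells of a type and more or less RNA per cell cannot be told apart.

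The deleted gene gave little sign of the genotype. Elavl1 had 56.0 and 63.3 RPKM in HuR-FKO, against 64.6 and 81.8 RPKM in Ctrl. The HuR-FKO pools lay below both Ctrl pools, by a small margin (log2 fold change -0.28 ± 0.20, adjusted p = 0.67). The reads cover the whole coding sequence, the position of the deleted exons is not used here, and the other cells of the tissue keep HuR, so Elavl1 did not check the labels. The genotype of each library was therefore taken from its label.

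Most of the translated output came from few genes. Counting from the most abundant gene down, 50% of the summed RPKM came from 162 and 166 genes in the HuR-FKO pools, against 187 and 196 genes in the Ctrl pools. The 10 most abundant genes over the 4 libraries held 22.1% and 22.8% of the summed RPKM in HuR-FKO, against 19.7% and 19.4% in Ctrl. Fabp4, the cytosolic fatty acid carrier of adipocytes, was the highest gene in each library. Fabp4 had 55252 and 58336 RPKM in HuR-FKO, against 42436 and 43706 RPKM in Ctrl. It made up 5.88% and 6.22% of the summed RPKM in HuR-FKO, against 4.55% and 4.79% in Ctrl. The groups did not overlap, yet the change did not pass the test (log2 fold change 0.40 ± 0.11, adjusted p = 0.27). Since an RPKM weighs a short protein as much as a long one, the shares of reads, which weigh ribosomes, were computed too. On that scale Car3, the carbonic anhydrase of fat and muscle cytosol, took 3.60% and 3.53% of the reads in HuR-FKO, against 2.87% and 3.16% in Ctrl, where it ranked first in each pool but HuR-FKO pool 2. There Cfd led with 3.56%. Fabp4 took 2.25% and 2.38% in HuR-FKO, against 1.73% and 1.78% in Ctrl.

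The 9 genes that followed Fabp4 by mean RPKM were Car3, Cfd, Scd1, Ifi27l2a, Lpl, Hba-a1, Hba-a2, Sparc and B2m. Cfd had 39650 and 44638 RPKM in HuR-FKO, against 30605 and 27125 RPKM in Ctrl. Cfd encodes adipsin, a complement protease secreted by fat cells, and both HuR-FKO pools were above both Ctrl pools, without passing the test (log2 fold change 0.55 ± 0.13, adjusted p = 0.16). Car3 had 45044 and 44010 RPKM in HuR-FKO, against 35899 and 39543 RPKM in Ctrl. Scd1, the desaturase that introduces the double bond of oleate, showed the other direction without overlap, at 12848 and 12421 RPKM in HuR-FKO, against 15139 and 19183 RPKM in Ctrl (adjusted p = 0.32). Lpl, the lipase that frees fatty acids from circulating lipoproteins, and Sparc, a matrix glycoprotein, differed by less than 0.10 on the log2 scale. B2m, the light chain of class I antigen molecules, lay at 7410 and 6331 RPKM in HuR-FKO, against 7116 and 8754 RPKM in Ctrl, which overlapped. Hba-a1 and Hba-a2 encode alpha globin and are near-identical copies, so their reads could be shared and their separate values are uncertain.

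The 1038 genes that fell into 30 classes of function made up 46.4% to 47.4% of the summed RPKM. Fatty acid uptake and binding was the largest class, with 8.62% and 8.95% of the output in HuR-FKO, against 7.16% and 7.77% in Ctrl. Adipokines and other proteins secreted by adipocytes came next, with 7.70% and 7.93% in HuR-FKO, against 6.29% and 6.24% in Ctrl. Both classes were higher in each HuR-FKO pool than in either Ctrl pool, and in both this came with 1 gene. Without Fabp4 fatty acid uptake and binding took 2.74% and 2.73% in HuR-FKO, against 2.61% and 2.99% in Ctrl, and without Cfd the adipokine class took 3.48% and 3.17% in HuR-FKO, against 3.01% and 3.27% in Ctrl, so that both overlapped. The respiratory chain, 74 subunits of the machinery that makes ATP from oxygen, took 3.61% and 3.50% in HuR-FKO, against 3.75% and 3.93% in Ctrl. Fatty acid synthesis and NADPH supply took 2.30% and 2.22% in HuR-FKO, against 2.97% and 3.88% in Ctrl, and counted in reads, where its long enzymes weigh more, 3.16% and 2.95% in HuR-FKO, against 4.66% and 6.27% in Ctrl. Collagens, laminins and matrix glycoproteins took 2.87% and 2.94% in HuR-FKO, against 3.04% and 2.93% in Ctrl, with overlap. In reads the same class was the largest of all, at 7.15% and 7.37% in HuR-FKO, against 7.65% and 7.08% in Ctrl. Globins varied most between pools of 1 genotype, with 2.61% and 2.05% in HuR-FKO, against 5.25% and 2.77% in Ctrl.

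Of the 30 classes, 10 had a higher and 12 a lower share in both HuR-FKO pools than in both Ctrl pools, and 8 overlapped. The smallest p that an exact permutation test can give for a class is 0.33 with 2 pools a genotype, so none of these shares could pass a test. The largest ratio of HuR-FKO to Ctrl, 1.69, was that of immediate early genes (0.192% and 0.179% in HuR-FKO, against 0.109% and 0.110% in Ctrl), a set of quickly induced growth and stress response genes. Rhob was the most abundant member of that list, at 622.7 and 701.0 RPKM in HuR-FKO, against 260.1 and 255.2 RPKM in Ctrl. The ratio without Rhob was not computed. Iron handling and metallothioneins took 1.31% and 1.15% in HuR-FKO, against 0.882% and 0.914% in Ctrl. Cytosolic ribosomal proteins, at 1.66% and 1.68% in HuR-FKO, against 1.66% and 1.63% in Ctrl, were nearly level between the genotypes. Their share of the footprints was far below their share of the mRNA of the same pools, which was 5.42% and 5.59% in HuR-FKO, against 5.77% and 6.05% in Ctrl. The ratio of footprint share to mRNA share was 0.27 to 0.31 over the 4 pools for these genes, the lowest of the 30 classes, and 2.72 to 5.68 for globins, the highest. Footprints and mRNA were separate preparations of each pool, so a ratio of shares also carries the difference between the 2 kinds of library.

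**Figure D1:**
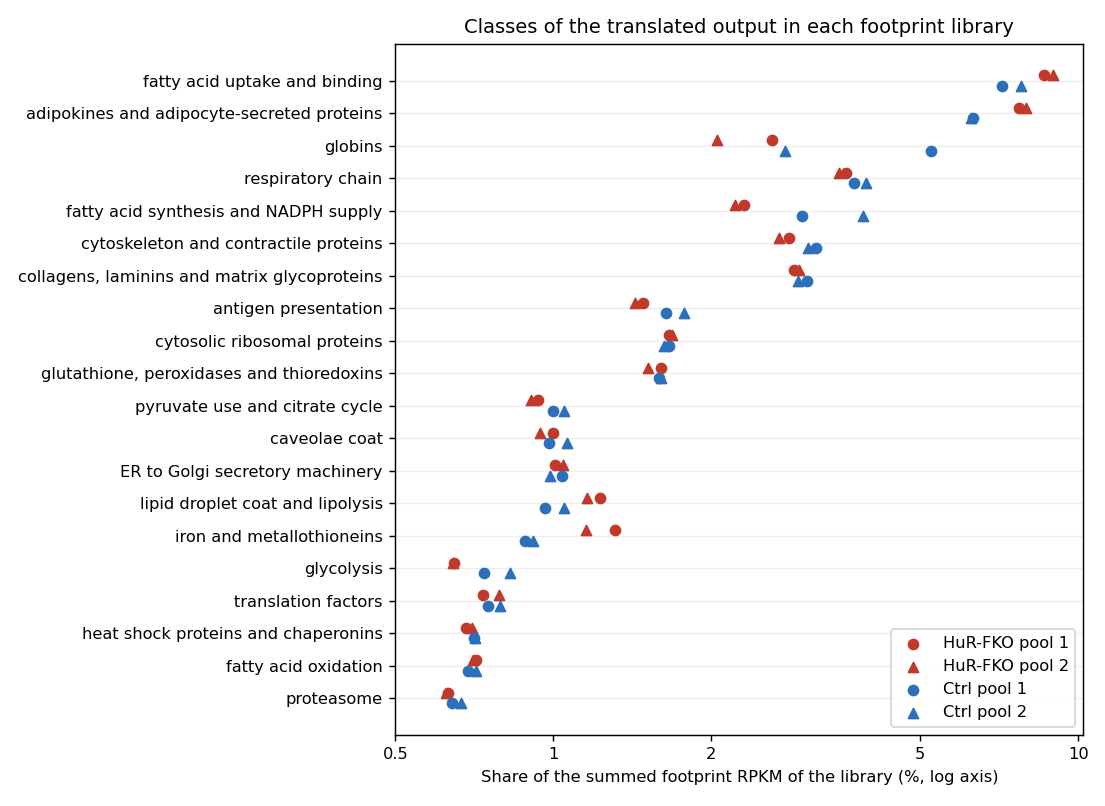
Share of the summed footprint RPKM of each library taken by the 20 classes with the largest share in Ctrl (percent, log axis). Red marks are the 2 HuR-FKO pools and blue marks the 2 Ctrl pools. Fatty acid uptake and binding and the adipokine class lay to the right in HuR-FKO, at 8.62% to 8.95% and 7.70% to 7.93%, and fatty acid synthesis and NADPH supply lay to the left, at 2.22% and 2.30%.

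In all, 10.7 percentage points of the summed RPKM moved between genes when the genotype means were compared. The same measure between 2 single pools was 6.84 points for the HuR-FKO pools, 8.38 points for the Ctrl pools, and 11.1 to 13 points for pools of unlike genotype. The largest gains were those of Fabp4 at 1.38 points, Cfd at 1.36 points, Ifi27l2a at 1.35 points and Car3 at 0.65 points. Behind them came Cyp2e1, Hp and Pck1, at 0.36, 0.32 and 0.23 points. The largest losses were those of Hba-a1 (-0.60 points), Hba-a2 (-0.56 points), Scd1 (-0.52 points) and the beta globins Hbb-bt and Hbb-bs (-0.17 points each), followed by Fasn (-0.16 points). Of these genes, Ifi27l2a, Cyp2e1, Hp, Pck1 and Fasn passed the test per gene, described next.

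The test across genes was limma on log2(RPKM + 1), with adjusted p under 0.05 as the threshold. In HuR-FKO, 28 genes rose, which is 0.327% of the 8562 tested, and 10 fell, which is 0.117%. Together these are 38 genes, or 0.444%. At an unadjusted p under 0.05 there were 913 genes, 390 higher and 523 lower. With voom, a count-based fit, 95 genes rose and 73 fell. Counts of list members at an unadjusted p or with voom are to be read beside these counts of all 8562 genes. Both HuR-FKO pools lay above both Ctrl pools for 1515 genes (17.7%) and below them for 2060 genes (24.1%), and the median change of all genes was -0.05. Calls were more frequent where more reads were counted. Among the 344 genes with at least 200 reads in each library, 7 rose and 4 fell, and among the 2805 genes with fewer than 10 reads in some library, 2 rose and none fell.

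**Figure D2:**
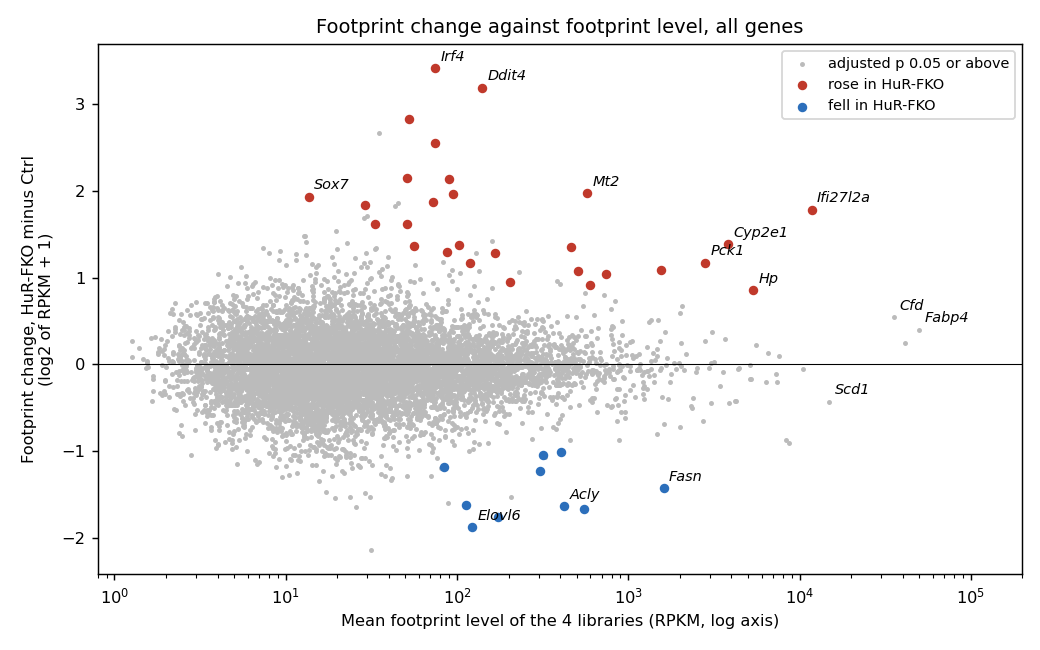
Footprint change of all 8562 genes (log2 of RPKM + 1, HuR-FKO minus Ctrl) against their mean level over the 4 libraries (RPKM, log axis). Red points rose (28) and blue points fell (10) at adjusted p under 0.05, and grey points did not pass. The grey points narrow toward high levels, and the abundant genes that rose were Ifi27l2a, Cyp2e1, Pck1 and Hp.

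Of the 10 genes that fell, 7 were on the list of fatty acid synthesis and NADPH supply. Enzymes of this pathway convert citrate and acetate into acetyl-CoA, build and lengthen the fatty acid chain, and supply the NADPH it needs. Acly, which cleaves citrate into acetyl-CoA in the cytosol, had 216.1 and 190.0 RPKM in HuR-FKO, against 522.4 and 766.1 RPKM in Ctrl (log2 fold change -1.64 ± 0.19, adjusted p = 0.014). Acss2 makes acetyl-CoA from acetate, and it had 50.7 and 58.0 RPKM in HuR-FKO, against 151.2 and 190.3 RPKM in Ctrl (log2 fold change -1.63 ± 0.19, adjusted p = 0.014). For both genes each HuR-FKO pool was below each Ctrl pool, and Ctrl pool 2 was the highest. Acaca, whose enzyme makes malonyl-CoA in the committed step, had 191.4 and 172.3 RPKM in HuR-FKO, against 376.5 and 486.4 RPKM in Ctrl (log2 fold change -1.23 ± 0.17, adjusted p = 0.026). Fasn, fatty acid synthase, had 924.6 and 789.6 RPKM in HuR-FKO, against 1862 and 2845 RPKM in Ctrl (log2 fold change -1.43 ± 0.20, adjusted p = 0.026). Fasn took 0.71% and 0.61% of all footprint reads in HuR-FKO, against 1.43% and 2.19% in Ctrl. By mean share of reads over the 4 libraries it ranked behind Car3, Cfd, Fabp4, Gsn, Scd1 and Lpl. Elovl6, which lengthens palmitate, had 40.8 and 60.9 RPKM in HuR-FKO, against 138.2 and 249.4 RPKM in Ctrl (log2 fold change -1.88 ± 0.30, adjusted p = 0.0463). Me1, the malic enzyme that yields NADPH, had 295.1 and 230.2 RPKM in HuR-FKO, against 690.4 and 1002 RPKM in Ctrl (log2 fold change -1.67 ± 0.20, adjusted p = 0.015). Pnpla3, a lipid droplet protein induced by feeding and placed on this list for that reason, had 74.6 and 83.1 RPKM in HuR-FKO, against 263.0 and 275.3 RPKM in Ctrl (log2 fold change -1.76 ± 0.16, adjusted p = 0.0044). In each of the 7 genes the pools did not overlap.

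On the whole list of fatty acid synthesis and NADPH supply, 7 of 29 measured members fell and none rose, against 0.117% and 0.327% of all genes. This list, like the other lists written here, was made with earlier results of these data known. Its counts beside those of all genes are therefore a description and not independent evidence. The median change was -0.43, beside -0.05 for all genes, and 21 members had both HuR-FKO pools below both Ctrl pools, against 24.1% of all genes. With empirical Bayes without a trend none of the 7 passed, and with voom 10 members were lower. The most abundant members were Scd1, Thrsp and Scd2. Thrsp, the thyroid hormone responsive protein of lipogenic tissue, lay at 1860 and 1988 RPKM in HuR-FKO, against 2268 and 3163 RPKM in Ctrl (adjusted p = 0.35), and Scd2 at 1609 and 1417 RPKM in HuR-FKO, against 2336 and 2646 RPKM in Ctrl (adjusted p = 0.069). Neither passed. Scd1 and Scd2 are similar desaturases whose short footprints could be shared.

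Other steps of lipid metabolism did not move as one. In sterol synthesis 0 of 24 members passed with limma, with 1 higher and 5 lower at an unadjusted p under 0.05, and 0 passed with voom. Its median was -0.34, beside -0.05 for all genes, and 15 members had both HuR-FKO pools below both Ctrl pools, against 24.1% of all genes. Hmgcs1, which makes the HMG-CoA of that pathway and was its most abundant member, lay higher, at 414.8 and 400.8 RPKM in HuR-FKO, against 313.7 and 319.2 RPKM in Ctrl (adjusted p = 0.39). Insig1, a sterol sensor that retains SREBP and SCAP in the endoplasmic reticulum, is named by the study. It had 50.9 and 48.3 RPKM in HuR-FKO, against 56.8 and 94.0 RPKM in Ctrl (log2 fold change -0.55 ± 0.26, adjusted p = 0.49). Its mRNA in the same pools passed, at 59.5 and 67.5 RPKM in HuR-FKO, against 136.0 and 131.4 RPKM in Ctrl (limma log2 fold change -1.06, adjusted p = 0.00059). The difference between these 2 changes of Insig1 did not pass (limma interaction, adjusted p = 0.67). For triglyceride assembly 1 of 15 members rose and none fell, against 0.327% and 0.117% of all genes, with a median of 0.02. That member was Pck1, the enzyme that makes phosphoenolpyruvate, from which fat cells derive the glycerol backbone in fasting. Pck1 had 3799 and 3967 RPKM in HuR-FKO, against 1793 and 1652 RPKM in Ctrl. The Pck1 pools agreed closely within a genotype (log2 fold change 1.17 ± 0.12, adjusted p = 0.0057). Dgat2, which adds the last fatty acid to triglyceride, lay at 682.5 and 565.9 RPKM in HuR-FKO, against 1015 and 1270 RPKM in Ctrl (-0.87, adjusted p = 0.072).

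Among 18 lipid droplet coat and lipolysis genes 0 passed with limma. At an unadjusted p under 0.05, 5 were higher and 2 lower, against 390 and 523 of all 8562 genes. With voom 4 were higher, against 95 of all genes. Cidec, which fuses lipid droplets, had 2742 and 2306 RPKM in HuR-FKO, against 1530 and 1633 RPKM in Ctrl (0.67, adjusted p = 0.095). Pnpla2, the triglyceride lipase ATGL, had 1629 and 1579 RPKM in HuR-FKO, against 1085 and 1163 RPKM in Ctrl (0.51, adjusted p = 0.16), and its activator Abhd5 had 213.9 and 201.3 RPKM in HuR-FKO, against 92.9 and 134.9 RPKM in Ctrl (0.88, adjusted p = 0.15). The droplet coat protein perilipin, encoded by Plin1, overlapped between genotypes, at 1656 and 1630 RPKM in HuR-FKO, against 1565 and 1747 RPKM in Ctrl. In fatty acid uptake and binding 0 of 17 passed with limma, 4 were higher and 1 lower at an unadjusted p under 0.05, and 3 were higher with voom. Acsl1, which activates fatty acids to acyl-CoA, had 917.3 and 914.4 RPKM in HuR-FKO, against 488.3 and 566.0 RPKM in Ctrl (0.80, adjusted p = 0.055).

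The other 3 genes that fell encode a secreted carrier, a protease and a membrane coat protein. Rbp4, the retinol carrier that adipocytes and liver secrete, had 251.3 and 280.6 RPKM in HuR-FKO, against 481.2 and 596.0 RPKM in Ctrl (log2 fold change -1.01 ± 0.16, adjusted p = 0.04). Adamts5, a protease of the matrix proteoglycan aggrecan, had 54.6 and 47.8 RPKM in HuR-FKO, against 115.8 and 119.2 RPKM in Ctrl (log2 fold change -1.19 ± 0.18, adjusted p = 0.036). Prkcdbp, now called Cavin3, a coat protein of caveolae, had 229.1 and 182.7 RPKM in HuR-FKO, against 387.0 and 466.3 RPKM in Ctrl (log2 fold change -1.05 ± 0.17, adjusted p = 0.0498). It was the member that fell among the 9 caveolae coat genes, against 0.117% of all genes. Cav1, the most abundant of them, lay at 5038 and 5148 RPKM in HuR-FKO, against 4986 and 5262 RPKM in Ctrl, with overlap. Under median ratio scaling 6 genes fell, and the calls of Rbp4, Prkcdbp, Adamts5 and Elovl6 were lost.

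**Figure D3:**
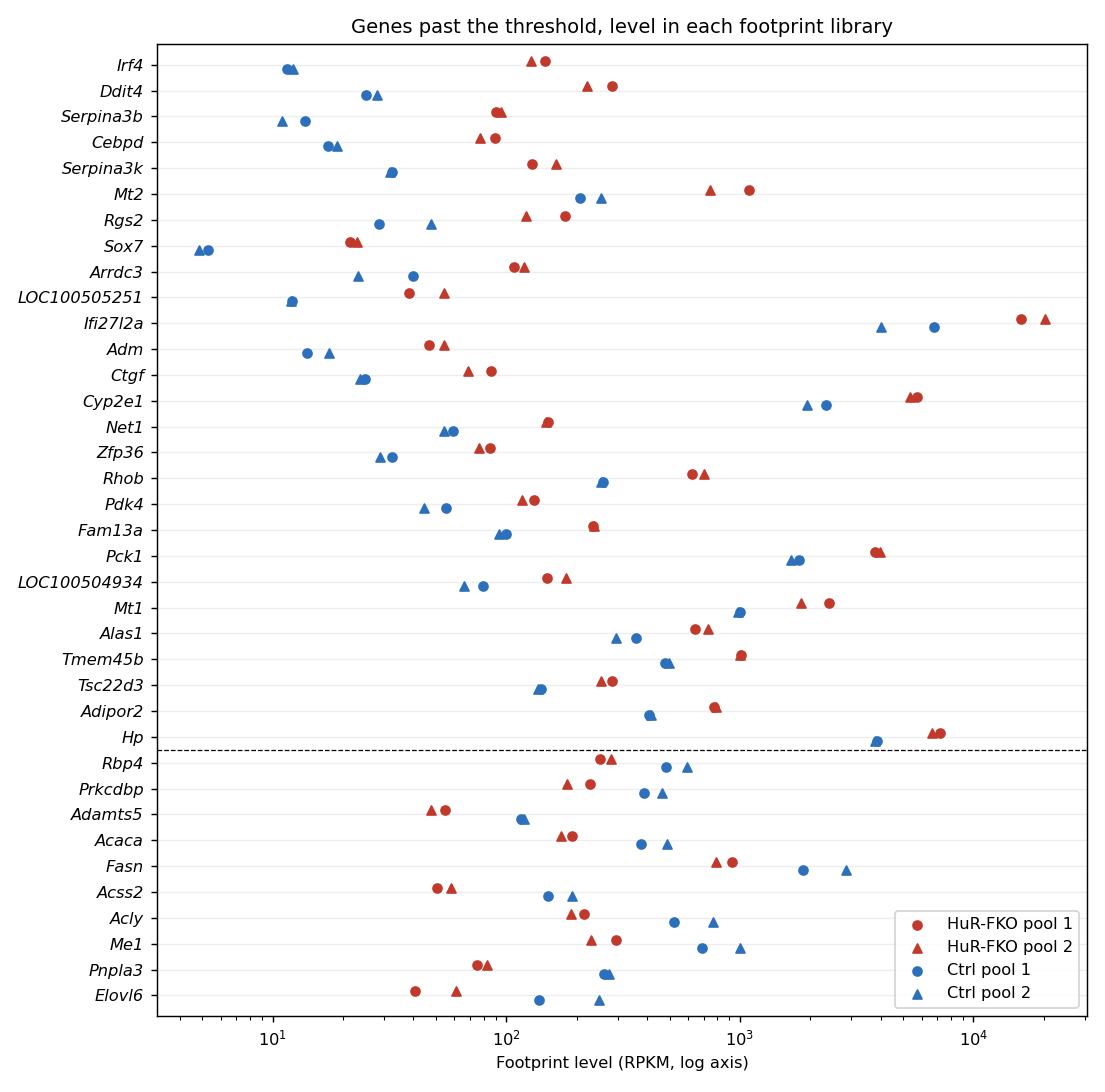
Footprint level (RPKM, log axis) of 37 genes past the threshold in each of the 4 libraries. Red marks are the HuR-FKO pools and blue marks the Ctrl pools, with 27 genes that rose above the dashed line and 10 that fell below it, in order of their change. The 2 colours are apart in each row, as in Irf4, where the HuR-FKO pools had 146.0 and 127.9 RPKM.

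The largest rises were in a transcription factor and an inhibitor of growth signalling. Irf4, an interferon regulatory factor that fasting induces in fat cells and that drives lipolytic genes there, had 146.0 and 127.9 RPKM in HuR-FKO, against 11.5 and 12.3 RPKM in Ctrl (log2 fold change 3.42 ± 0.21, adjusted p = 0.00057). Ddit4 encodes REDD1, which restrains mTORC1, the kinase complex that promotes protein synthesis, and it had 284.3 and 221.0 RPKM in HuR-FKO, against 25.2 and 28.1 RPKM in Ctrl (log2 fold change 3.19 ± 0.20, adjusted p = 0.00057). In Ctrl these values rest on 12 to 20 reads a library, and in HuR-FKO on 81 to 259 reads. Cebpd, a transcription factor of early adipogenesis and of the acute-phase response, had 89.8 and 77.0 RPKM in HuR-FKO, against 17.2 and 18.9 RPKM in Ctrl (log2 fold change 2.15 ± 0.22, adjusted p = 0.0057). The related Cebpb, which the study names, overlapped, at 59.1 and 80.3 RPKM in HuR-FKO, against 48.7 and 74.5 RPKM in Ctrl (adjusted p = 0.84). Cebpa, the most abundant factor of the list, lay at 326.4 and 315.3 RPKM in HuR-FKO, against 327.9 and 339.3 RPKM in Ctrl (adjusted p = 0.92). Of the 26 adipocyte transcription factors measured, Irf4 and Cebpd rose and none fell, against 0.327% and 0.117% of all genes. The median was -0.29, and 13 had both HuR-FKO pools below both Ctrl pools, against 24.1% of all genes. Pparg, the master regulator of the fat cell, lay at 152.2 and 122.5 RPKM in HuR-FKO, against 178.7 and 191.7 RPKM in Ctrl (adjusted p = 0.42), and Id3, an inhibitor of helix-loop-helix factors, at 148.6 and 73.3 RPKM in HuR-FKO, against 292.3 and 315.5 RPKM in Ctrl (-1.53, adjusted p = 0.084).

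Genes known to be induced by glucocorticoids, the adrenal steroids that act through a nuclear receptor, were counted as a list. Of 32 measured members of that list 9 rose and none fell, against 0.327% and 0.117% of all genes, and the median was 0.96, beside -0.05. In 22 members both HuR-FKO pools lay above both Ctrl pools, against 17.7% of all genes. The list was written with earlier results of these data known. The members that rose were Ddit4, Cebpd, Mt2, Rgs2, Zfp36, Rhob, Pdk4, Mt1 and Tsc22d3. Tsc22d3, which encodes the leucine zipper protein GILZ, had 284.2 and 254.9 RPKM in HuR-FKO, against 140.7 and 137.1 RPKM in Ctrl (log2 fold change 0.95 ± 0.15, adjusted p = 0.045). Rgs2, a regulator of G protein signalling, had 178.8 and 121.4 RPKM in HuR-FKO, against 28.7 and 47.9 RPKM in Ctrl (log2 fold change 1.96 ± 0.28, adjusted p = 0.03). Zfp36 encodes tristetraprolin, which binds AU-rich elements and promotes decay of the mRNA, and it had 85.0 and 76.4 RPKM in HuR-FKO, against 32.6 and 28.8 RPKM in Ctrl (log2 fold change 1.37 ± 0.20, adjusted p = 0.033). Of these, Rgs2 varied most between the pools of a genotype. Rhob, a small GTPase of endosomes, had 622.7 and 701.0 RPKM in HuR-FKO, against 260.1 and 255.2 RPKM in Ctrl (log2 fold change 1.36 ± 0.14, adjusted p = 0.0057). The most abundant member was Glul, glutamine synthetase, at 1809 and 1865 RPKM in HuR-FKO, against 1359 and 1487 RPKM in Ctrl, which did not pass (adjusted p = 0.33). Bcl6, a transcriptional repressor, lay furthest the other way, at -1.20 (adjusted p = 0.18).

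Immediate early genes had 3 of 20 members that rose, Rhob, Zfp36 and Ctgf, against 0.327% of all genes, and a median of 0.45. Of the 35 genes written for this list 15 were not in the table, among them Fos, Junb and Nr4a1. Ctgf, now called Ccn2, a secreted matricellular growth factor, had 86.0 and 68.3 RPKM in HuR-FKO, against 24.9 and 23.8 RPKM in Ctrl (log2 fold change 1.62 ± 0.22, adjusted p = 0.025). Gadd45g, a growth arrest gene also on the glucocorticoid list, did not pass, at 275.3 and 188.4 RPKM in HuR-FKO, against 103.2 and 69.2 RPKM in Ctrl (1.42, adjusted p = 0.060). Egr1 and Jund lay lower in both HuR-FKO pools (-0.66 each) and did not pass, so the list did not move in 1 direction.

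Metallothioneins, small cysteine-rich proteins that bind zinc, copper and cadmium, rose together. Mt2 had 1096 and 741.8 RPKM in HuR-FKO, against 206.2 and 253.9 RPKM in Ctrl (log2 fold change 1.97 ± 0.20, adjusted p = 0.0057). Mt1, its neighbour on chromosome 8, had 2410 and 1819 RPKM in HuR-FKO, against 998.4 and 978.1 RPKM in Ctrl (log2 fold change 1.08 ± 0.15, adjusted p = 0.028). HuR-FKO pool 1 was the higher of the 2 in both genes. Their RefSeq promoter windows, 250 bases before to 50 after the start of the gene in build GRCm38.p6, are shown because both genes moved the same way and are the classic targets of metal response elements. Capitals mark matches of TGCACNC or TGCGCNC, the core of that element, on either strand.
Mt1 (chr8:94178839-94179138, plus strand): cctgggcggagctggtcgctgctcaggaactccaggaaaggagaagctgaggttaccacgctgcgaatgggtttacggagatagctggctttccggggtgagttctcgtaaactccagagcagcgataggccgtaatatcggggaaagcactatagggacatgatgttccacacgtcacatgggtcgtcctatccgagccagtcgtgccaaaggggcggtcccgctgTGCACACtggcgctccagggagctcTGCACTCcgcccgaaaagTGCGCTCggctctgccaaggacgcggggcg
Mt2 (chr8:94172368-94172667, plus strand): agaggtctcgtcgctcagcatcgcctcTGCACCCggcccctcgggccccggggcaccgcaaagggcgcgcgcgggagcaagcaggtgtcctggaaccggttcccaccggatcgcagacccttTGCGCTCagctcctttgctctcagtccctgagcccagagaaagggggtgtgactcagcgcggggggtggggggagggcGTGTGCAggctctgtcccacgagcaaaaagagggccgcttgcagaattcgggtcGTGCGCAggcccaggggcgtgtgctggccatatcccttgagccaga
The Mt1 window held 3 matches and the Mt2 window 4. Of 32851 such windows 25.7% held at least 1 match and 1.97% held 3 or more. A gene can have several windows, so genes are counted here if any of their windows held a match. Of the 18 genes that rose and have a window, 10 did, and of the 8 that fell and have a window, 2 did, beside 41.1% of the 6713 tested genes with a window. The E-box CACGTG was in 7.15% of all windows and in 12.4% of tested genes, in 1 of those 18 and in none of those 8. The sterol regulatory element (TCACNCCAC) was in 1.24% of all windows and 1.43% of tested genes, the glucocorticoid response element (AGAACA, then NNN, then TGTTCT) in 0.0091% of windows and 0.015% of tested genes, and neither was in either set. These are matches of letters in a short window, on both strands, and not sites. No other gene of the iron list passed. Trf, transferrin, lay at 3570 and 3339 RPKM in HuR-FKO, against 2543 and 2801 RPKM in Ctrl (adjusted p = 0.32), and Fth1, ferritin heavy chain, at 3088 and 3036 RPKM in HuR-FKO, against 2671 and 2410 RPKM in Ctrl (adjusted p = 0.47).

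Fasting and FoxO target genes had 5 of 29 members that rose, Irf4, Ddit4, Arrdc3, Pdk4 and Pck1, and none that fell, against 0.327% and 0.117% of all genes, with a median of 0.10. That list too was written with earlier results of these data known. Pdk4, the kinase that shuts pyruvate dehydrogenase and so spares glucose, had 131.1 and 116.9 RPKM in HuR-FKO, against 55.3 and 44.6 RPKM in Ctrl (log2 fold change 1.30 ± 0.19, adjusted p = 0.033). Arrdc3, an arrestin-like adaptor of beta-adrenergic receptors, had 108.4 and 119.4 RPKM in HuR-FKO, against 39.7 and 23.3 RPKM in Ctrl (log2 fold change 1.87 ± 0.26, adjusted p = 0.028). Txnip, a related protein that restrains glucose uptake, lay at 2540 and 2311 RPKM in HuR-FKO, against 1645 and 1566 RPKM in Ctrl, and did not pass (0.59, adjusted p = 0.10). Among 30 genes of insulin signalling and glucose uptake 0 passed with limma, 1 was higher and 4 lower at an unadjusted p under 0.05, and 1 was lower with voom. Their median was 0.05. Slc2a4, the insulin-responsive glucose transporter, lay at 149.5 and 183.2 RPKM in HuR-FKO, against 200.2 and 242.1 RPKM in Ctrl (adjusted p = 0.46). In glycolysis 0 of 19 passed with limma, 0 were higher and 4 lower at an unadjusted p under 0.05, 1 was lower with voom, and the median was -0.18. Aldoa, aldolase, its most abundant member, lay at 1520 and 1407 RPKM in HuR-FKO, against 1772 and 2117 RPKM in Ctrl (adjusted p = 0.33).

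Several abundant genes that rose encode metabolic and secreted proteins. Cyp2e1, a cytochrome P450 that oxidises ethanol, acetone and fatty acids, had 5759 and 5339 RPKM in HuR-FKO, against 2329 and 1936 RPKM in Ctrl (log2 fold change 1.38 ± 0.13, adjusted p = 0.0051). Hp, haptoglobin, which binds free haemoglobin and is secreted by liver and fat, had 7212 and 6625 RPKM in HuR-FKO, against 3869 and 3778 RPKM in Ctrl (log2 fold change 0.85 ± 0.11, adjusted p = 0.025). Both were tight within each genotype and apart between them. Adipor2, a receptor for adiponectin, had 772.7 and 789.2 RPKM in HuR-FKO, against 410.4 and 418.0 RPKM in Ctrl (log2 fold change 0.91 ± 0.12, adjusted p = 0.026). The ligand Adipoq overlapped, at 7810 and 5968 RPKM in HuR-FKO, against 5901 and 6605 RPKM in Ctrl (adjusted p = 0.81). The receptor thus rose, while the ligand did not pass. Alas1, which starts haem synthesis, had 643.6 and 734.2 RPKM in HuR-FKO, against 360.3 and 294.5 RPKM in Ctrl (log2 fold change 1.08 ± 0.15, adjusted p = 0.029). Tmem45b, a transmembrane protein, had 1011 and 998.4 RPKM in HuR-FKO, against 476.1 and 497.3 RPKM in Ctrl (log2 fold change 1.04 ± 0.12, adjusted p = 0.014). Fam13a, a gene associated with fat distribution, had 234.0 and 236.7 RPKM in HuR-FKO, against 99.6 and 92.9 RPKM in Ctrl (log2 fold change 1.28 ± 0.15, adjusted p = 0.014). For Tmem45b and Fam13a the pools of a genotype lay close to each other.

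Of the serpin A3 genes, a cluster on chromosome 12 that encodes secreted protease inhibitors of the acute-phase type, 2 rose. Serpina3b had 90.6 and 95.3 RPKM in HuR-FKO, against 13.7 and 10.9 RPKM in Ctrl (log2 fold change 2.82 ± 0.23, adjusted p = 0.0026). Serpina3k had 129.3 and 163.1 RPKM in HuR-FKO, against 32.4 and 31.9 RPKM in Ctrl (log2 fold change 2.14 ± 0.20, adjusted p = 0.0046). These genes are close copies of each other and footprints are short, which leaves the split of reads among them, and so each single value, uncertain. Serpina3n, the most abundant copy, lay at 581.4 and 543.3 RPKM in HuR-FKO, against 430.8 and 467.4 RPKM in Ctrl, and did not pass (adjusted p = 0.43). On the whole list of acute-phase proteins and serpin A3 genes 3 of 18 rose with Hp and none fell, against 0.327% and 0.117% of all genes, and the median was 0.40. Orm1, an orosomucoid, lay at -0.38 (adjusted p = 0.52), against the direction of the serpins.

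Ifi27l2a, an interferon-inducible membrane protein, had one of the highest levels of the table. Ifi27l2a had 15973 and 20263 RPKM in HuR-FKO, against 6797 and 4012 RPKM in Ctrl. The Ctrl pools lay far from each other, and the HuR-FKO pools lay above both (log2 fold change 1.78 ± 0.23, adjusted p = 0.022). It was 1 of 44 interferon-stimulated genes and the one that rose, against 0.327% of all genes, while none fell and the median was 0.08. Its relative Ifi27l1 lay the other way, at 541.4 and 525.7 RPKM in HuR-FKO, against 783.4 and 781.0 RPKM in Ctrl (-0.55, adjusted p = 0.15).

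Markers of other cells were read in the same way. Of 31 measured macrophage markers 0 passed with limma, 10 were higher and 0 lower at an unadjusted p under 0.05, and 1 was higher with voom. Their median was 0.32, and in 17 both HuR-FKO pools lay above both Ctrl pools, against 17.7% of all genes. Of these markers 25 lay above 0 and 6 below. Lyz2, Emr1, Csf1r and Mrc1 differed by at most 0.13 on the log2 scale, while Gpnmb and Ms4a6d lay at 1.26 and 1.17. All of these but Lyz2 were picked after their values were seen, so they do not stand for the list. Inflammatory mediators had 0 of 20 past the threshold with limma, 4 higher and 0 lower at an unadjusted p under 0.05, 3 higher with voom, and a median of 0.00. Of the 41 mediators written for this list 21 were not in the table, among them Tnf, Il1b and Il6, so these counts do not cover them. Ccl9, a chemokine of myeloid cells, lay at 358.3 and 270.7 RPKM in HuR-FKO, against 157.9 and 138.9 RPKM in Ctrl (1.07, adjusted p = 0.055). The part of macrophage number in these values, or in Ifi27l2a and the serpins, was not tested. Globin footprints, from blood in the tissue, were lower in both HuR-FKO pools than in the Ctrl pools, at 24522 and 19254 RPKM in HuR-FKO, against 48885 and 25250 RPKM in Ctrl, with 0 of 7 genes past the threshold in limma, 2 lower at an unadjusted p under 0.05 and 2 lower with voom.

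The remaining genes that rose have roles in vessels, signalling or matrix. Sox7, a transcription factor of endothelial cells and the member that rose among 22 endothelial markers, had 21.4 and 23 RPKM in HuR-FKO, against 5.32 and 4.84 RPKM in Ctrl (log2 fold change 1.93 ± 0.28, adjusted p = 0.03). These values rest on 32 and 14 reads in HuR-FKO, against 7 and 4 reads in Ctrl, and 4 was the lowest count of a gene that passed. That is 1 of 22 endothelial markers that rose, against 0.327% of all genes, and the median of the list was 0.13. Both HuR-FKO pools lay above both Ctrl pools in 7 of these markers and below in 3, against 17.7% and 24.1% of all genes. Adm encodes adrenomedullin, a vasodilator peptide, and it had 46.8 and 54.3 RPKM in HuR-FKO, against 14.1 and 17.5 RPKM in Ctrl (log2 fold change 1.62 ± 0.24, adjusted p = 0.036). Net1, an exchange factor of RhoA, had 150.6 and 148.1 RPKM in HuR-FKO, against 59.2 and 54.4 RPKM in Ctrl (log2 fold change 1.38 ± 0.17, adjusted p = 0.015). For 2 more, LOC100505251 and LOC100504934, the table gives predicted IDs with no annotated role. LOC100505251 had 38.5 and 54.0 RPKM in HuR-FKO, against 12.1 and 12 RPKM in Ctrl (log2 fold change 1.84 ± 0.27, adjusted p = 0.03). LOC100504934 had 149.1 and 179.8 RPKM in HuR-FKO, against 79.2 and 66.1 RPKM in Ctrl (log2 fold change 1.17 ± 0.18, adjusted p = 0.0454).

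No gene of the machinery that makes and degrades proteins passed in the lists that follow. Cytosolic ribosomal proteins had 0 of 78 past the threshold with limma, 5 higher and 3 lower at an unadjusted p under 0.05, 0 with voom, and a median of 0.05. Translation factors had 0 of 55, with 1 higher and 0 lower at an unadjusted p under 0.05, 0 with voom, and a median of 0.00. The proteasome had 0 of 45 in limma, 0 at an unadjusted p under 0.05 and 0 with voom, at a median of 0.00. For the respiratory chain 0 of 74 passed with limma, 0 were higher and 5 lower at an unadjusted p under 0.05, 0 passed with voom, and the median was -0.08. Collagens, laminins and matrix glycoproteins, with 70 members at a median of -0.03, had 0 past the threshold with limma, 4 higher and 5 lower at an unadjusted p under 0.05, and 2 higher and 2 lower with voom. A gene that misses the threshold is not shown to be level at this depth.

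**Figure D4:**
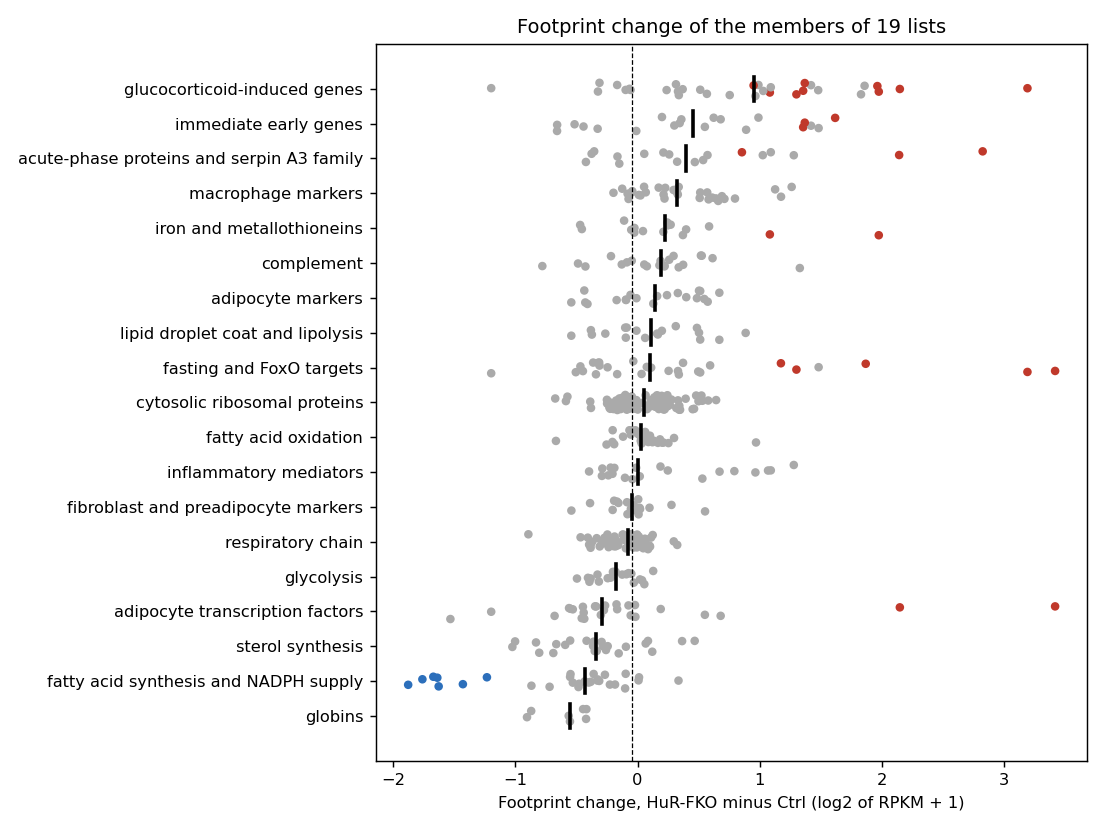
Footprint change of each measured member of 19 lists (log2 of RPKM + 1, HuR-FKO minus Ctrl), with black bars at the list medians and a dashed line at the median of all genes (-0.05). Red points rose and blue points fell past the threshold, and grey points did not pass. Glucocorticoid-induced genes had the highest median of these lists (0.96), and 7 members of fatty acid synthesis and NADPH supply stood apart at the left.

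A list of HuR-bound mRNAs that the study gives was matched to the table by ID. The copy used here holds 199 IDs, may be short of the study's full list, and all its IDs were in the table. None passed in either direction with limma. At an unadjusted p under 0.05, 6 were higher and 13 lower, against 390 and 523 of all 8562 genes. With voom 4 were lower, against 73 of all genes. The median change of the list was -0.04, beside -0.05 for all genes. In 38 both HuR-FKO pools lay above both Ctrl pools, against 17.7% of all genes, and in 56 both lay below, against 24.1%. Dlst, a subunit of the 2-oxoglutarate dehydrogenase complex, and Mcur1, a regulator of the mitochondrial calcium uniporter, had the lowest changes of the list, at -1.20 each (adjusted p = 0.060 and 0.084). Dlst had 49.7 and 46.9 RPKM in HuR-FKO, against 96.0 and 130.6 RPKM in Ctrl. Hmgb1, a chromatin protein that the study names and that is not on that list, lay a little lower in both HuR-FKO pools, at 109.6 and 104.6 RPKM in HuR-FKO, against 113.9 and 134.5 RPKM in Ctrl (adjusted p = 0.71).

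The footprint changes were then set beside the mRNA changes of the same pools. All 38 genes past the footprint threshold had an mRNA change of the same sign, and for 36 the mRNA passed as well, where 14% of all genes did. Hp and LOC100504934 were the 2 whose mRNA did not pass, at 0.42 (adjusted p = 0.058) and 0.11 (adjusted p = 0.57). Since both assays used the same pools, differences between pools enter both, and the shared sign is not independent evidence. The share of all genes with the same sign in both is not given here. The difference between footprint and mRNA change was tested for each gene as the interaction of genotype and assay. That fit took the 8 libraries as independent and did not model the pool that a footprint and an mRNA library share. None of the 38 passed, with adjusted p from 0.39 to 1.00. Ddit4 rose by 1.96 in mRNA and 3.19 in footprints, Sox7 rose by 0.62 in mRNA and 1.93 in footprints, and Pnpla3 fell by 0.78 in mRNA and by 1.76 in footprints. For Fasn the footprint change was the smaller one, at -1.43 beside -2.09 in mRNA.

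Across all 8562 genes 1 passed the interaction test (0.0117%), and 688 were at an unadjusted p under 0.05. Stk38, a serine/threonine kinase of the NDR family, had 282.6 and 276.2 RPKM of mRNA in HuR-FKO, against 56.0 and 53.4 RPKM in Ctrl, a log2 change of 2.33. In footprints it had 28.9 and 32.3 RPKM in HuR-FKO, against 58.3 and 39.6 RPKM in Ctrl, a log2 change of -0.64 that did not pass by itself (adjusted p = 0.42). The mRNA pools of a genotype lay close together and far from those of the other genotype, which the footprints did not. The difference of the 2 changes was -2.97 ± 0.26 (SE, limma interaction, adjusted p = 0.0062). With any 1 of the 4 pools left out, no gene passed this test.

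**Figure D5:**
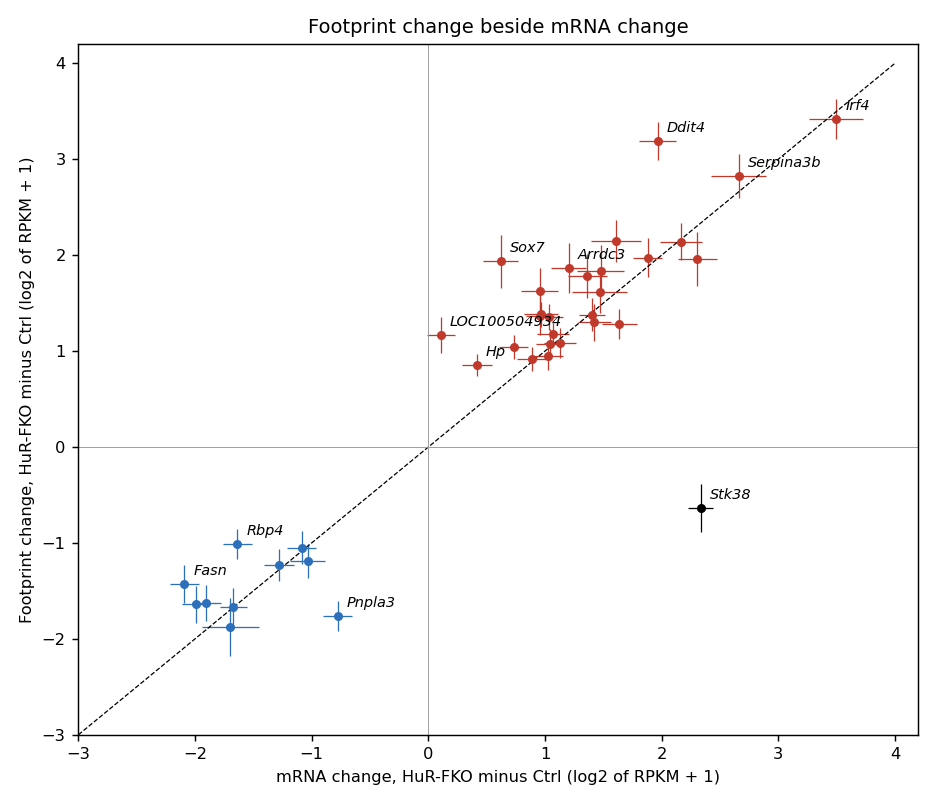
Footprint change against mRNA change (both log2 of RPKM + 1, HuR-FKO minus Ctrl) of 37 genes past the footprint threshold, red where they rose and blue where they fell, and of Stk38 in black. Bars are standard errors from limma and the dashed line marks equal change. The 37 genes have the same sign on both axes, and Stk38 lies at 2.33 in mRNA and -0.64 in footprints.

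How far the calls rest on single pools was examined by leaving out each in turn. Without HuR-FKO pool 1, 11 genes rose and 5 fell, and without HuR-FKO pool 2, 12 rose and 3 fell. Without Ctrl pool 1, 63 rose and 44 fell, and without Ctrl pool 2, 40 rose and 18 fell. In these fits the lone pool of a genotype is assumed to vary like the other genotype. Of the 38 genes 10 passed in each of the 4 fits, among them Irf4, Ddit4, Serpina3b, Cebpd, Serpina3k, Mt2, Rhob, Cyp2e1 and Pnpla3. Under each of 13 alternatives 4 of the 38 passed, among them Irf4, Ddit4 and Serpina3b. Empirical Bayes without a trend cost the most calls, with 4 genes that rose and 0 that fell (833 genes at an unadjusted p under 0.05). The direction of the 38 genes was kept in each alternative that was run. Among the genes of fatty acid synthesis, Fasn, Acaca and Elovl6 did not pass without either HuR-FKO pool, Me1 and Acly did not pass without HuR-FKO pool 2, and Acss2 did not pass without HuR-FKO pool 1. The adjusted p in those fits ranged up to 0.13.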

How the data were processed

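RPKM values per gene, deposited by the authors in 1 table, were the starting point. The submitters' processing notes name cutadapt 1.8.3, TopHat2 2.0.9 and Bowtie 1.0.0. The study's methods name the mm10 build, TopHat and Cufflinks for RNA-seq given in another unit (FPKM), and whether that covers this table is not stated. For the footprints, which build, annotation or counting program was used is not given in the sources used here. Further columns hold means and ratios between genotypes and assays that the authors computed, and these were not used. Whole reads were recovered for 8151 genes (95.2%, within 0.001 reads) from GENCODE coding lengths and for 411 genes from the smallest whole numbers, and each covers counting error only.

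Groups came from the sample labels. The 4 footprint libraries were compared with limma 3.58.1 in R 4.3.3 on log2(RPKM + 1), with trended empirical Bayes and Benjamini-Hochberg adjustment over all 8562 genes, which the filter (mean above 1 RPKM in at least 1 genotype) left complete. Fold changes are on that scale and understate changes of low genes. Errors beside them are standard errors of that fit with 2 pools a genotype, and their variance draws on other genes of similar level. Class shares were compared by a two-sided exact permutation test in SciPy 1.17.1 under Python 3.11.15. A gene in several lists was put in 1 class. Alternatives were another pseudocount, filter, scaling, variance model, count-based voom, a replicate block, a fit over 8 libraries and leaving out each library. Sums without their leading genes were added after seeing the data.

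The lists and the choice of genes were made with earlier results of these data known. Named were genes past the threshold, the 10 most abundant genes, genes the study names, and, per list, the members past the threshold, the 3 most abundant and, where none passed, those of largest change. Bcl6, Egr1, Jund, Orm1, Slc2a4, Emr1, Csf1r, Mrc1, Gpnmb and Ms4a6d were chosen after their values were seen. Of the genes this rule names, 2 are not reported here, 1 of which rose. Symbols turned into dates were restored for 18 of 19 genes.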

Additional observations from a re-analysis of the deposited data

Results flagged for a closer look

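Stk38 was the gene whose footprint change differed from its mRNA change between the genotypes. The difference, footprint change minus mRNA change on the log2 scale, was -2.97 ± 0.26 (SE, limma interaction, adjusted p = 0.0062). Its mRNA had 282.6 and 276.2 RPKM in HuR-FKO, against 56.0 and 53.4 RPKM in Ctrl, while its footprints had 28.9 and 32.3 RPKM in HuR-FKO, against 58.3 and 39.6 RPKM in Ctrl. Both HuR-FKO pools were above both Ctrl pools in mRNA and below both in footprints. Groups of 2 libraries were too small to look for a library that stands apart from its group. The test of the difference did not model the pool shared by footprints and mRNA.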

How the results depend on the processing

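The footprint calls were 28 genes that rose and 10 that fell. A replicate block gave 73 that rose and 67 that fell. The labels share only a replicate number between genotypes, and the deviations of same-numbered pools correlated at -0.005 across genes, so nothing paired them. A fit over all 8 libraries gave 93 and 109, voom on recovered reads 95 and 73, and empirical Bayes without a trend 4 and 0 (833 genes at an unadjusted p under 0.05). Median ratio scaling gave 28 and 6. Leaving out each library gave 11 to 63 that rose and 3 to 44 that fell. Genes whose footprint change differed from the mRNA change numbered 1, against 2 with voom and 0 to 0 with a library left out. The gain in share was 1.38 percentage points for Fabp4 and 2.90 for the 10 highest genes, against 0.558 and 1.50 when counted in reads, and 1.21 to 1.55 and 2.58 to 3.22 with a library left out. Fatty acid synthesis and NADPH supply changed by -1.17 points, against -2.41 in reads and -1.62 to -0.712 with a library left out. The share of heat shock proteins and chaperonins changed by -0.017 points, against 0.0107 without the 10 highest genes. Chosen after seeing the data, fatty acid uptake and binding without Fabp4 changed by -0.0614 points, against 1.32 with it, and adipokines without Cfd by 0.19, against 1.55 with it. The cause of these differences was not tested. The shallowest library had a median of 16 reads a gene, so small changes in genes of low level were not detectable at this depth.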
